A study of Mus musculus with 15 samples.

Results

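The 15 arrays of tibialis anterior (TA) muscle fell into 2 sets by their signal for Cdkn1a, the gene of the cell cycle inhibitor p21. Arrays were selected on the Cdkn1a probe of the highest mean signal: the 10 arrays of 15 with a linear signal of 1000 or more were called p21-high, and the 5 below 1000 were called p21-low. Each array held total RNA of 1 mouse, hybridised to an Illumina mouse bead chip, and signal here is the deposited, quantile-normalised brightness of a probe on a linear scale. All animals were male C57BL/6 mice of 8 to 10 weeks by the labels (C57BL/6J and a narrower age range within it by the methods), with no genetic change named in the labels, injected intraperitoneally and killed 20 hours after the last injection. The label Ctrl stood for PBS, the label Dox for 15 mg/kg of doxorubicin, a chemotherapy drug that breaks DNA, and the label Dox + sACVR2B for a soluble activin receptor, sACVR2B-Fc, at 10 mg/kg, given 48 hours before the same dose of doxorubicin, with 5 mice per label.

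The sets crossed these labels. The p21-low arrays were those labelled Ctrl 2, Ctrl 3, Dox 2, Dox + sACVR2B 4 and Dox + sACVR2B 5, and values of the p21-low arrays are given in this order throughout. Of the arrays labelled Ctrl, 3 were p21-high and 2 p21-low, against 4 and 1 labelled Dox and 3 and 2 labelled Dox + sACVR2B. An exact test of the labels against the sets, two-sided and in the Freeman-Halton form, gave p = 1. High Cdkn1a on arrays labelled as from PBS mice, and low Cdkn1a on arrays labelled as from mice given doxorubicin, put the labels in doubt. The doubt as raised here comes from p53 targets, and which arrays, if any, carry a wrong label was not tested. For Ddit4, a brake on mTORC1, Dox minus Ctrl was -0.26 (SE 0.42, adjusted p = 0.86, limma with Benjamini-Hochberg adjustment). For Foxo1, an atrophy factor, it was -0.01 (SE 0.31, adjusted p = 0.996, limma). Of 11458 genes 0 were called for Dox against Ctrl, and both of these genes differed between the sets, which cross the labels. What the values of these 2 genes mean for the labels was not tested. No array was moved to another label, and p21-high is not used here as another word for treated.

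The sets were made from the outcome, which makes the comparison circular. Cdkn1a differs between the sets by construction, and any gene that varied together with Cdkn1a over these arrays will differ too, whatever the reason. The differences between p21-high and p21-low arrays are therefore given as descriptions, with no test and no p-value. A gene is called non-overlapping where its signal on every p21-high array was above, or on every one below, its signal on any p21-low array.

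In muscle as in other tissues, p53 is held low by Mdm2, an E3 ubiquitin ligase that is itself switched on by p53. After DNA damage the ligase lets go, p53 accumulates and binds DNA at paired half-sites, and genes for cell cycle arrest (Cdkn1a, Gtse1, Ccng1), death receptors (Fas) and repair are transcribed. Doxorubicin traps topoisomerase II on cut DNA and is a textbook activator of this response. Muscle fibres do not divide, and p21 is also known in muscle from differentiation, denervation and atrophy.

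The p53 half-site (a motif of 10 bases that reads the same on both strands, searched without mismatch) was searched in RefSeq promoter windows of GRCm38.p6, which run from 250 bases before to 50 bases after a gene's start. Of all 32851 windows, 8.36% held at least 1 half-site and 0.0731% held 2 with a spacer of at most 13 bases. Among genes measured above noise with a window, the share was 8.35%, and of the 17 members of the p53 target list that were non-overlapping and had a window, 8 (47.1%) held 1. The share among members of this list with overlapping sets was not computed, so the 47.1% cannot be tied to the split. The higher non-overlapping genes outside that list lay near the background, with 19 of 209 (9.09%), as did the histone genes, with 10.5%. The windows of Cdkn1a, Mdm2, Ccng1, Gtse1 and Ei24 are shown as examples of p53 targets whose window holds a half-site, with the half-sites in capitals. They were picked for holding one. They lie at chr17:29090729-29091028 on the plus strand, chr10:117710709-117711008 on the minus strand, chr11:40755237-40755536 on the minus strand, chr15:85859696-85859995 on the plus strand (1 of 2 windows of Gtse1) and chr9:36797285-36797584 on the minus strand, respectively.
Cdkn1a: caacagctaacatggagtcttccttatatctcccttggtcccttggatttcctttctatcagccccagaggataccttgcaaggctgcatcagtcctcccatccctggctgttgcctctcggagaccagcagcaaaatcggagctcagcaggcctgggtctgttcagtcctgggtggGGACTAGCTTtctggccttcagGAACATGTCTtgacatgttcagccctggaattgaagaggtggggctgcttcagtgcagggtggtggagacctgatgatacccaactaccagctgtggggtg
Mdm2: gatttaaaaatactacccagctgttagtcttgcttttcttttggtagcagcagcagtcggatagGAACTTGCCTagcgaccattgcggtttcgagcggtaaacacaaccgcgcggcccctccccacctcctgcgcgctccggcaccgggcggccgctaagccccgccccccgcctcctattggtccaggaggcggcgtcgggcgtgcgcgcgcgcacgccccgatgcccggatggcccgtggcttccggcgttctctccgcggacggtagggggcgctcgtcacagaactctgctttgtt
Ccng1: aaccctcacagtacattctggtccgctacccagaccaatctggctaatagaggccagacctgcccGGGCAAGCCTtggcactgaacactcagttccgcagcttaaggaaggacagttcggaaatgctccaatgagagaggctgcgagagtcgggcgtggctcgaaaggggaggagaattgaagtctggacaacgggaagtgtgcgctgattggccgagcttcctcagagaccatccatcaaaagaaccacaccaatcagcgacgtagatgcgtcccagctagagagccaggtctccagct
Gtse1: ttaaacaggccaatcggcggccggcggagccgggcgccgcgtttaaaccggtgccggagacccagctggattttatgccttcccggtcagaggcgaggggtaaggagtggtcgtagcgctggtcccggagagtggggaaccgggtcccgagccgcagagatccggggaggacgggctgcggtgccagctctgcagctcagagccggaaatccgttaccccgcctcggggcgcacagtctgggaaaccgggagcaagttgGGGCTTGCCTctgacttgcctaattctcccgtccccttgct
Ei24: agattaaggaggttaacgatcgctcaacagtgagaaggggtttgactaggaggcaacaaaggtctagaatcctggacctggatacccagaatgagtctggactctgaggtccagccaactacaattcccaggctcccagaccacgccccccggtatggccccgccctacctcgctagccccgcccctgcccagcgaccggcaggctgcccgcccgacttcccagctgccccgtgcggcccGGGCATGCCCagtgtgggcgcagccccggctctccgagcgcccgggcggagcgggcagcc
Only the Cdkn1a window, of these 5, held a pair with a short spacer. The window of Fas held no half-site, which says only that these letters are not in that stretch. A match describes the sequence and does not show binding.

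Cdkn1a itself ran from 2359 to 4634, with a median of 4029.9, on the 10 p21-high arrays, and was 294, 187, 132, 209 and 359 on the 5 p21-low arrays. No array lay near the limit: the lowest p21-high array, labelled Dox 1, had 2359, and the highest p21-low array, labelled Dox + sACVR2B 5, had 359. The mean of log2(signal + 50), the scale used for all differences here, was 11.87 ± 0.32 (SD, n = 10) on the p21-high and 8.10 ± 0.46 (SD, n = 5) on the p21-low arrays, a difference of 3.76. The other Cdkn1a probes, which the rule did not read, parted the same arrays at their widest gap, between 206 and 1429 for the second probe and between 44.4 and 298 for the other. They measure the same transcript in the same RNA. Within the p21-high set 3 arrays labelled Dox were lowest, at 2359, 2694 and 3316, and the highest array was labelled Ctrl 5. By label, Cdkn1a did not pass limma with Benjamini-Hochberg adjustment (Dox minus Ctrl 0.25, SE 1.08, adjusted p = 0.95).

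**Figure D1:**
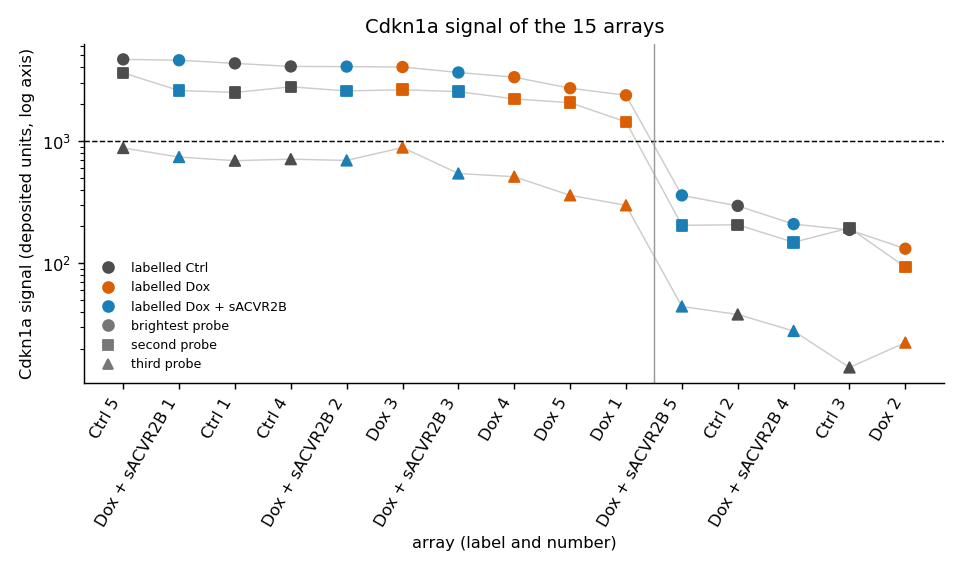
Signal of the 3 Cdkn1a probes (log axis, deposited units) on each of the 15 arrays, in order of the brightest probe. Colour gives the label and symbol the probe. The dashed line is the limit of 1000 applied to the brightest probe, and the vertical line parts the 10 p21-high arrays from the 5 p21-low arrays, which fall on the same sides for every probe.

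Over all 11458 genes above noise, each read from its brightest probe, the median difference between the sets was -0.0019, and the 5th to 95th percentile ran from -0.41 to 0.37. Non-overlapping were 274 genes that were higher on the p21-high arrays (2.39%) and 217 that were lower (1.89%). With a fold of at least 1.5 added, 111 (0.969%) and 78 (0.681%) remained, and with a fold of 2, 38 and 13. The median difference of the non-overlapping genes was 0.52 for the higher and -0.50 for the lower. All 491 kept their sign within each of the 3 labels, which the absence of overlap fixes and which is no added support. For 11 of the higher genes every p21-low array was below noise, so that they passed the noise filter only through the p21-high arrays and had to differ.

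**Figure D2:**
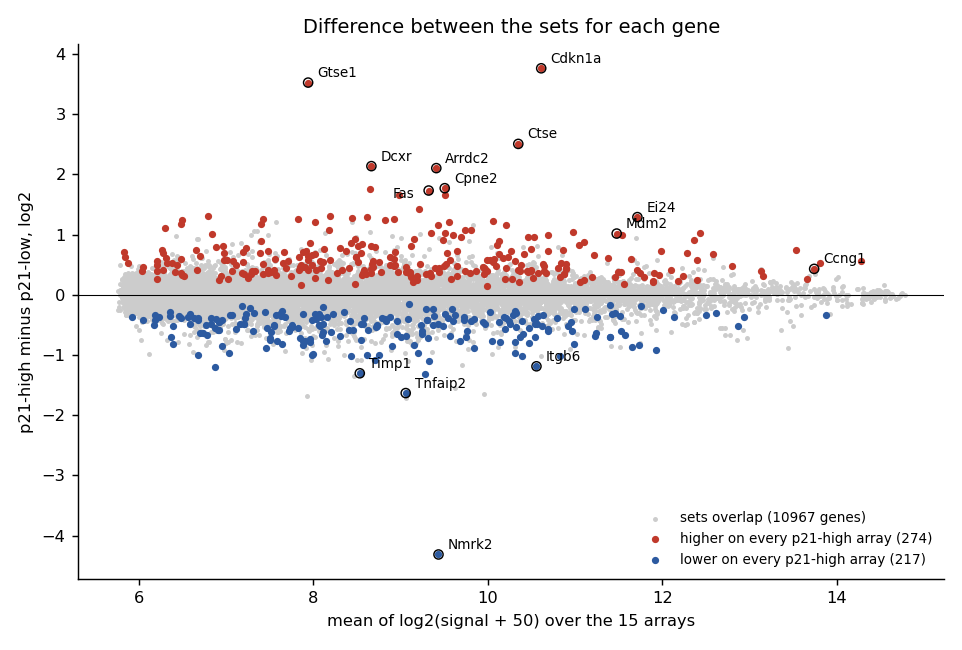
Each point is 1 of 11458 genes, with its mean level over the 15 arrays on the x axis and the p21-high minus p21-low difference (log2) on the y axis. Red and blue mark the 274 and 217 non-overlapping genes. Cdkn1a, at 3.76, and Nmrk2, at -4.31, lie farthest from 0.

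The labels gave no calls of this kind. In the limma fit of the labels, 0 of 11458 genes (0%) passed an adjusted p of 0.05 for Dox against Ctrl, and 0 (0%) for Dox + sACVR2B against Dox. At an unadjusted p under 0.05 there were 1238 and 504. Of the 491 non-overlapping genes, 11 and 6 were among these, a smaller share than of all 11458 genes. Each label holds arrays of both sets, so that the difference between the sets adds to the spread of these genes within a label. The lowest adjusted p of the 491 from limma was 0.36 and 0.99. Because the labels are in doubt, these counts are no measure of the effect of doxorubicin or sACVR2B-Fc.

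A principal component analysis without Cdkn1a and the p53 target list placed the sets apart as well. The sets did not overlap on the first component. This component, with 30.3% of the variance over 11392 genes, scored 0.20 to 20.0 on the p21-high arrays and -27.5 to -10.1 on the p21-low arrays. The second, with 16.5%, did not part them. It ran from the p21-high array labelled Dox 5, at -17.2, to the one labelled Ctrl 4, at 18.2. The arrays of a set were not alike. On the median non-overlapping gene outside the p53 target list, where 0 is the p21-low mean and 100 the p21-high mean, the p21-high arrays stood between 77.0 (Dox 1) and 135 (Dox 4), and the p21-low arrays between -12.3 (Ctrl 2) and 14.4 (Dox + sACVR2B 5). That these positions do not overlap is fixed by the choice of genes, and only their spread within a set is informative. The array labelled Dox 1 was the lowest p21-high array in 67 of the 274 higher genes, and Ctrl 4 in 55.

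**Figure D3:**
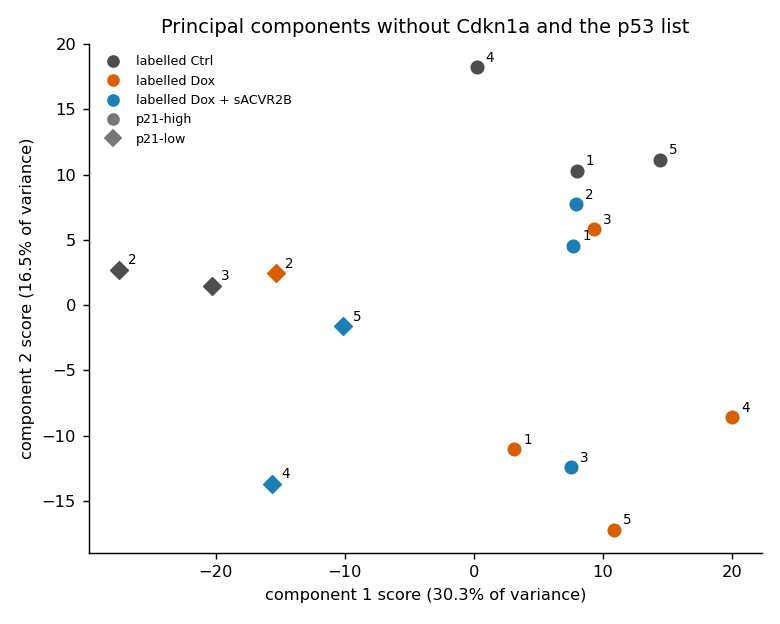
Scores of the 15 arrays on the first and second principal component, computed without Cdkn1a and the p53 target list. Circles are p21-high and diamonds p21-low arrays, colour gives the label, and the number is the mouse number of that label. The p21-low arrays lie at -10.1 or below on the first component, and all p21-high arrays lie above 0.

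Of the other p53 markers, Gtse1, a cell cycle protein that restrains p53, was the most different. Its signal was 7.2, -7.0, -11.5, 12.2 and -5.8 on the p21-low arrays, all below the noise limit of 12.4, and 159.5 to 2284 with a median of 466 on the p21-high arrays. Because the p21-low side has only a bound, the p21-high mean of this brightest probe was at least 8.90-fold higher. A dimmer Gtse1 probe gave 2.01 without overlap, and the dimmest gave 0.05 with overlapping sets. The mean over its probes was 1.86. Fas, the death receptor, was 198, 223, 288, 215 and 272 against 601 to 1767 with a median of 824, a difference of 1.73. Mdm2 differed by 1.02, with 1769.7, 1853, 1764, 1620.2 and 1655 on the p21-low arrays and 2383 to 4540.0 with a median of 3484 on the p21-high arrays. The 5 p21-low arrays lay close together for Mdm2, with an SD of 0.08 on the log2 scale against 0.28 on the p21-high arrays. Ccng1, cyclin G1, was bright on every array and its brightest probe differed least, by 0.43. Its signal was 11453, 10949, 12245, 10143 and 11078 on the p21-low arrays and 13103 to 17713 with a median of 15009 on the others. Its dimmer probes gave 0.87 and 0.85. All 5 markers, Cdkn1a included, were non-overlapping. Within the labels Ctrl, Dox and Dox + sACVR2B, the differences were 3.88, 4.23 and 2.51 for Gtse1, 2.04, 1.65 and 1.34 for Fas and 1.08, 1.02 and 0.94 for Mdm2. They were smallest within Dox + sACVR2B for all 3 genes, which was not tested, and the value within Dox rests on 1 p21-low array.

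The p53 target list, which holds Mdm2, Ccng1, Gtse1 and Fas but not Cdkn1a, had 65 of 78 genes above noise. Of these 20 (30.8%) were higher without overlap, against 2.39% of all genes, and 0 were lower. The median difference of the list was 0.29, and 0.26 with the 4 members that were below noise on all p21-low arrays at their bound. Among the 50 members above noise on every array, 15 were non-overlapping. The list was written with earlier results of these arrays known.

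Among the other non-overlapping members, Trp53inp1, a cofactor of p53 in stress, was 257, 312, 298, 253 and 333 against 632 to 1658 with a median of 1042 (difference 1.66). Ei24, an endoplasmic reticulum protein induced by p53, was 1678, 1821, 1898, 1677 and 1941 against 3300.0 to 5994 with a median of 4428 (difference 1.29). For both genes the sets were well apart, with the nearest arrays at 333 and 632 for Trp53inp1 and at 1941 and 3300.0 for Ei24. Zmat3, an RNA-binding zinc finger protein, differed by 0.92, and Aen, a nuclease that acts in apoptosis, by 1.01. Eda2r, a receptor of the TNF family that drives muscle wasting in mice with tumours, was dim, with 4.0, -3.3, 27.1, 3.1 and 23.5 against 29.4 to 66.8 with a median of 37.6. The sets nearly touched there, at 27.1 and 29.4.

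Some non-overlapping members act in repair, nucleotide supply or metabolism, and are named singly. Mgmt, which removes alkyl groups from guanine, was 281, 316, 391, 289.7 and 339 against 499 to 965 with a median of 618 (difference 0.93). Rrm2b, the ribonucleotide reductase subunit of resting cells, differed by 0.39 and Ercc5, a nuclease of nucleotide excision repair, by 0.58. Xpc, the damage sensor of the same pathway, had a difference of 0.45 with overlapping sets. Dcxr, L-xylulose reductase, was 114, 111, 91.2, 94.9 and 96.2 against 400.0 to 1042 with a median of 586 (difference 2.14). That was the largest gap on the list after Gtse1. Ephx1, microsomal epoxide hydrolase, differed by 1.07, Slc19a2, a thiamine transporter, by 0.99, and Abhd4, a lipase, by 0.81. Sulf2, an extracellular sulfatase, differed by 0.52, and its sets nearly touched, at 306 and 313. Ckap2, a spindle protein, and Rap2b, a small GTPase, were below noise on every p21-low array, and their p21-high means were at least 1.89-fold and 1.47-fold higher. Foxo3, a forkhead factor, was below noise on every p21-low array and also on 2 p21-high arrays. Its sets parted within noise, at 8.3 and 9.4, and its p21-high mean was 1.18-fold higher with the p21-low signals raised to the noise limit.

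Not every target was different. Members with a large difference of means but overlapping sets included Bbc3 (1.21), a killer of the BCL-2 family, Apaf1 (1.21), the core of the apoptosome, Polk (1.05), a translesion polymerase, and Sesn2 (0.94). Near 0 lay Ddb2 (0.03), a damage sensor, Pml (0.10) and Tnfrsf10b (-0.06), a death receptor. Tigar, which lowers glycolytic flux, had the lowest difference of the list, -0.59. In the list of the BCL-2 family and caspases 0 of 29 genes were non-overlapping, with a median of 0.0023. Over all genes the shares were 2.39% higher and 1.89% lower. That list does not hold Bbc3 or Apaf1, which were read with the p53 targets. In the list of p53 and its regulators 1 of 10 genes was lower without overlap (10%, against 1.89% of all genes). That gene was Trp53bp1, a scaffold at DNA breaks (difference -0.58). The mean over its probes gave -0.25, and both dimmer probes overlapped. Of 24 DNA repair genes 1 (4.17%, against 2.39% of all genes) was higher, Lig3, a DNA ligase, by 0.44, and a dimmer Lig3 probe had the opposite sign (-0.32). The DNA repair list does not hold Mgmt, Ercc5 or Polk, which were read with the p53 targets.

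**Figure D4:**
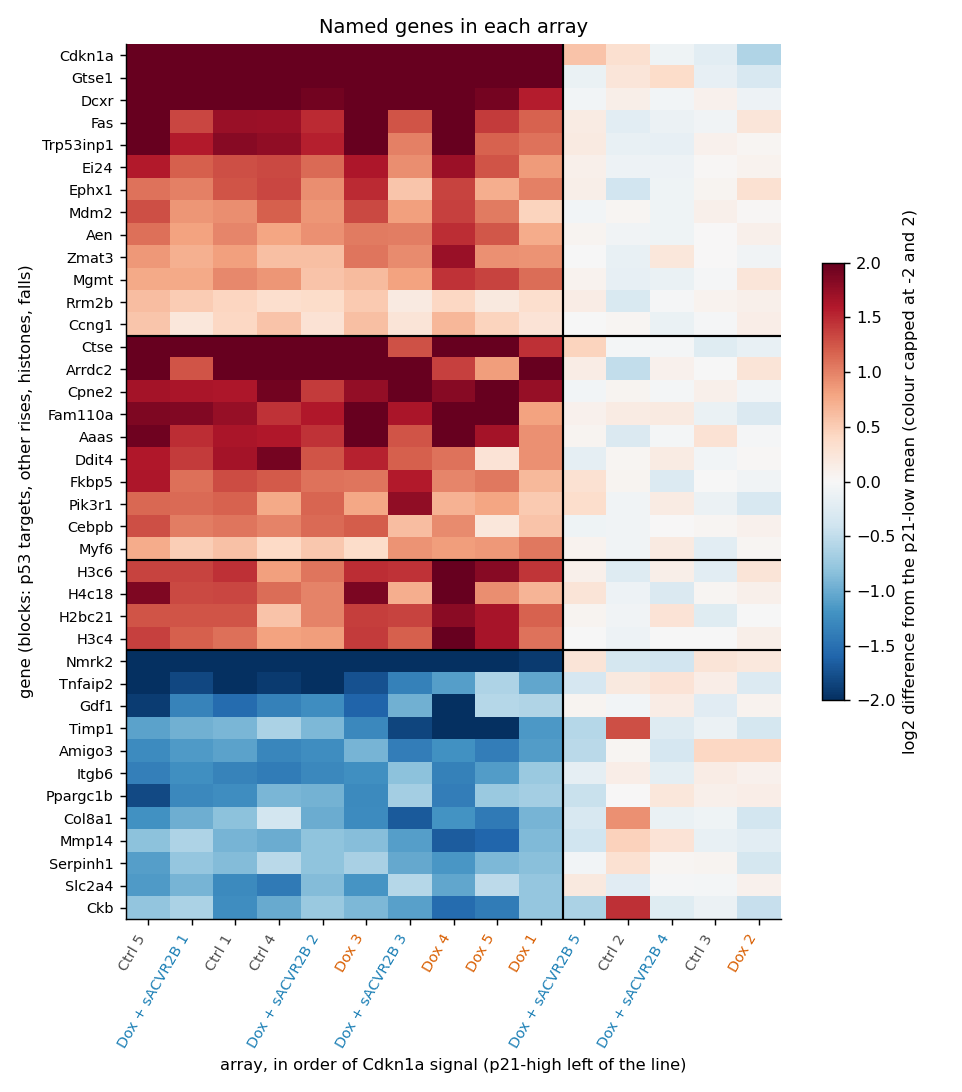
Log2 difference of each array (columns, in order of Cdkn1a signal) from the p21-low mean for 39 named genes (rows), with colour capped at -2 and 2. Blocks hold p53 targets, other higher genes, histones and lower genes. All 39 genes are non-overlapping between the 10 p21-high and 5 p21-low arrays, but the sets come close in some rows, such as Timp1 and Ckb. Ctrl 2 stands above the other p21-low arrays for Timp1, Col8a1 and Ckb.

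Outside the p53 target list and Cdkn1a, 253 genes were higher without overlap. The largest difference was that of Ctse, cathepsin E, an aspartic protease, at 349, 298, 321, 351 and 509 on the p21-low arrays and 943 to 5396 with a median of 2335 on the p21-high arrays (difference 2.51). Cpne2, copine 2, a calcium-dependent membrane-binding protein, had narrow sets, with 283, 293, 258, 263 and 258 against 794 to 1362 with a median of 1027 (difference 1.77, SD 0.22 and 0.07). Fam110a, a centrosomal protein, differed by 1.76 and Aaas, the nuclear pore protein ALADIN, by 1.66. The brightest probes of Fam110a and Aaas carried these values, and averaging over probes lowered them to 1.16 and 0.93. Dusp2, a MAP kinase phosphatase, differed by 1.30, but 3 p21-low arrays were below noise, its other probe gave 0.32 with overlap, and the mean over both probes was 0.81. Further large differences were those of Map3k6 (1.26), a kinase of the stress cascade, Sctr (1.26), the secretin receptor, and Tfcp2l1 (1.24), a transcription factor. Rps27l, a ribosomal protein paralogue, and Susd6 are known p53 targets that the list did not hold. Named after their values were seen, Rps27l was 7740.0 to 9796 on the p21-low and 12781 to 16403 on the p21-high arrays (difference 0.74), and Susd6 differed by 1.05. Spc25, a kinetochore subunit, was below noise on every p21-low array and at least 1.93-fold higher on the p21-high arrays.

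Histone genes were frequent among the higher genes. Of the 15 largest differences outside the p53 target list, 4 were of histones: H3c6 (1.43), H4c18 (1.31), H2bc21 (1.27) and H3c4 (1.26). H3c6 was 205, 215, 316, 281 and 278 against 493 to 1258 with a median of 776, and H3c4 was 204, 219.9, 246, 220.5 and 222 against 426 to 1030.0 with a median of 575. A list of all measured replication-type histone genes was then drawn up, after their values had been seen. Of 42 such genes 28 (66.7%) were higher without overlap and 0 lower, with a median of 0.72 and a range from 0.56 to 1.43 among the 28. All but 1 of the 28 were above noise on every array. H1f2, a linker histone and the brightest of them, was 14423 to 16316 on the p21-low arrays and 19077 to 25762 on the p21-high arrays. Genes with overlap included H2ac24 (-0.16), H2ac22 (-0.15) and H2ac7 (-0.07). These genes are close copies of each other, and 1 probe can read several, so that the 28 are not 28 separate measurements. Their messages mostly lack a poly(A) tail, and how the labelling read them was not tested. A second H2bc21 probe showed no difference (0.01). In the cell cycle list 0 of 28 genes were higher, which is near the 2.39% of all genes, and Aurka, a mitotic kinase, was lower (-0.77). That list does not hold Cdkn1a, Gtse1, Ckap2 or Spc25, which act in the cell cycle and were higher without overlap.

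Genes that glucocorticoids switch on in muscle came next. Of 21 such genes 4 (19.0%, against 2.39% of all genes) were higher without overlap and 0 lower, with a median of 0.31. Arrdc2, an arrestin-like protein, was 134, 207, 257, 223 and 235 against 409 to 1889.6 with a median of 1178 (difference 2.10). Ddit4, which encodes REDD1, a brake on mTORC1 and so on protein synthesis, was 173, 159.7, 172, 194 and 142 against 213 to 771 with a median of 497 (difference 1.28). Its difference was 1.73 within the arrays labelled Ctrl and 0.93 within those labelled Dox. Ddit4 is also a p53 target, and the data do not tell its inducers apart. Fkbp5, a co-chaperone of the glucocorticoid receptor, was 366, 348, 334, 282 and 446 against 583 to 1176 with a median of 807 (difference 1.17), and Cebpb, a leucine zipper factor, differed by 0.91.

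In the list of FoxO, KLF and insulin genes 2 of 21 (9.52%, against 2.39% of all genes) were higher and 1 (4.76%, against 1.89%) was lower without overlap, with a median of -0.07. Of 23 mTORC1 brakes and muscle size genes 2 (8.70%) were higher, Ddit4 and Ddit4l. Pik3r1, the regulatory subunit of PI 3-kinase, was 938, 904, 780.3, 1117 and 1282 against 1448 to 3517 with a median of 1985 (difference 0.99). Foxo1, the forkhead factor that drives atrophy genes, was 162, 182, 168, 167 and 239.5 against 267 to 600.2 with a median of 398 (difference 0.92), though a second, dim Foxo1 probe gave -0.25. Slc2a4, the insulin-regulated glucose transporter GLUT4, was lower, with 1653, 1881, 2062, 1907 and 2226 against 694 to 1325 with a median of 956 (difference -0.97). Ddit4l, the muscle paralogue of Ddit4, was 6862, 6747, 7765, 7752 and 7959 against 8355 to 11733 with a median of 9544 (difference 0.40). Of 18 atrophy ligases and partners 0 were higher without overlap, against 2.39% of all genes. In that list 1 (5.56%, against 1.89% of all genes), Ubr2, an N-end rule ligase, was lower (-0.34), and a single gene says little about the list. Fbxo32 (atrogin-1), chosen here after its values were seen, had a mean difference of 0.95 but overlapping sets, at 1149 to 3608 on the p21-low and 1943 to 8551 on the p21-high arrays. Trim63 (MuRF1) had -0.13.

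Other higher genes were spread over several functions. Myf6, the myogenic factor MRF4, was 4202, 3819.9, 4536, 5033 and 4652 against 5754 to 9219.7 with a median of 7061 (difference 0.68). Xdh, xanthine dehydrogenase, which can also reduce doxorubicin, was 435, 477, 522, 350.2 and 596 against 809 to 1319.6 with a median of 1049 (difference 1.07). Cbr3, a carbonyl reductase, was lower by a small margin (-0.19). Its dimmer probe gave 0.09 with overlapping sets, and the mean over its probes was -0.05. Of 36 ribosome biogenesis genes 3 (8.33%, against 2.39% of all genes) were higher, Heatr1 (0.40), Gnl2 (0.38) and Npm1 (0.32), and the median of that list was 0.13. A dimmer Gnl2 probe gave 0.03, and the mean over its probes 0.20. The amino acid carriers Slc7a8 (0.67) and Slc38a2 (0.52), the clock genes Rora (0.58) and Cry2 (0.47), Usp18, an interferon-induced protease (0.65), Flt1, a VEGF receptor of endothelium (0.42), and Acadm, of fatty acid oxidation (0.27), were also higher without overlap. For Slc38a2 the mean over probes was 0.25, and neither of its other probes was non-overlapping. Of 26 endothelial genes 1 (3.85%, against 2.39% of all genes) was higher, Flt1, while 17 had a difference below 0 and the median was -0.095. A dimmer Flt1 probe gave 0.31 with overlapping sets. Higher without overlap was also Hprt (0.34), the 1 of 10 common reference genes that was (10%, against 2.39% of all genes).

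The lowest gene by far was Nmrk2, a kinase of striated muscle that makes NAD+ from nicotinamide riboside. Its signal was 3945, 6006, 5858, 3836 and 6032 on the p21-low arrays and 39.7 to 1301 with a median of 162 on the p21-high arrays, a difference of -4.31, larger in size than that of Cdkn1a. The sets were far apart, since the highest p21-high array, at 1301, was below the lowest p21-low array, at 3837. Of its dimmer probes, 1 gave -4.13, but the other was higher on every p21-high array, by 1.01. The 3 probes therefore do not give 1 value for the gene.

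Other lower genes belonged to adhesion, signalling and metabolism. Vegfa, the angiogenic growth factor, named after its values were seen, was 5151 to 6126 on the p21-low and 2032 to 4169 on the p21-high arrays (difference -0.91). Tnfaip2, a TNF-induced exocyst-like protein, was 1252, 1191, 892, 1326 and 846 against 127 to 691 with a median of 279 (difference -1.63). Itgb6, an integrin subunit that activates latent TGF-β, was 2817, 2843, 2729.8, 2226 and 2250.0 against 938 to 1512 with a median of 1040.3 (difference -1.19). Ppargc1b, the coactivator PGC-1β, differed by -1.10, with sets at 730 to 1195 and 256 to 618. Gdf1, a TGF-β family ligand that shares its transcript with Cers1 in mice, differed by -1.31. Its probe cannot be tied to either protein. Amigo3, an adhesion protein, was 91.5 to 224 on the p21-low arrays and 28.6 to 57.9 on the p21-high arrays (-1.20). Il4i1, an amino acid oxidase, was 96.3 to 146 against 6.9 to 64.8, and Cc2d2a, a ciliary protein, differed by -0.99 and Hspb1, a small heat shock protein of muscle, by -0.70. Ckb, brain-type creatine kinase, differed by -1.01, but by -0.65 without Ctrl 2, whose signal of 7878.5 stood above the next array, at 2628.

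Extracellular matrix was the list with the most lower genes. Of 31 genes of collagens and matrix 6 (19.4%) were lower without overlap, against 1.89% of all genes, 0 were higher, 26 had a difference below 0 and the median was -0.53. Serpinh1, the collagen chaperone, was 5828, 4943, 3708, 4874 and 4554 against 2076 to 3246 with a median of 2601 (difference -0.87). Mmp14, a membrane-bound collagenase, was 2929, 1892, 1818, 2560.2 and 1592 against 633 to 1353 with a median of 1099 (difference -1.02), and Timp1, an inhibitor of such enzymes, was 1595, 572, 482, 519 and 407 against 99.1 to 388 with a median of 265 (difference -1.30). The margins were narrow for Timp1, where the sets came within 388 and 407 of each other. Col5a2 (-0.83), Col5a1 (-0.81) and Loxl1 (-0.81), a crosslinking oxidase, were the other 3. Outside the list, Col8a1 (-1.09), Col8a2 (-1.01), Matn4 (1.99-fold lower), a matrilin, and Fstl1 (-1.01), a secreted glycoprotein, were lower as well. Ctrl 2 had the highest signal of all arrays for Timp1, Mmp14, Col8a1, Fstl1 and Serpinh1.

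In whole muscle, fewer cells of a type and less RNA per cell cannot be told apart, and the summed markers of other cells differed in part. The summed signal of 13 of 16 fibroblast markers above noise was 4154 to 5827 on the p21-high arrays and 5743 to 8226 on the p21-low arrays. No fibroblast marker was non-overlapping, which is near the shares of all genes (2.39% higher and 1.89% lower) for a list of this size. Of the 13 markers 11 had a difference below 0, the median was -0.20, and Pi16, the marker with the largest difference, had -1.08. Tcf21, Ly6a and Fbln5 were at or below noise. The summed collagens and matrix ran from 51134 to 80948 against 78526 to 99999. Smooth muscle and pericyte markers summed to 16720 to 19148 against 18963 to 22641 over 11 of 12 genes. Macrophage markers summed to 4036 to 12175 against 5005 to 12968 over 22 of 29 genes, with Cd68, Itgam and Ccr2 not above noise. The 6 measured genes of the MHC class II and lymphocyte list all had a difference below 0 (median -0.55), and summed to 1474 to 4039 against 2428 to 4357. Endothelial markers, at 30399 to 49401 with a median of 37253 against 33598 to 40791 with a median of 36456, and adipocyte markers, at 3396 to 6690 against 2837 to 6121, overlapped between the sets over most of their range. The part of these cells in the lower matrix signals was not tested.

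Most lymphocyte and granulocyte markers were not above noise. Of 23 MHC class II and lymphocyte markers 17 were not above noise, among them Cd3e, Cd4, Cd8a and Ptprc, and of 13 neutrophil markers 9 were not, among them Ly6g and Mpo. Of the 4 neutrophil markers above noise, 2 had a difference above 0 and 2 below, with a median of 0.23. Mmp9, the marker among them with the largest difference, was 138 to 2381 on the p21-low and 44.9 to 219 on the p21-high arrays. Its sets overlapped, and its highest value was in Ctrl 2. Skeletal muscle markers (Acta1, Ckm, Myh4, Mylpf, Tnnt3 and Pvalb) were all above noise, and their sums overlapped, at 115377 to 146046 against 118006 to 144538. Red cell and iron genes had a median of -0.40, but 0.34 within Ctrl, -0.21 within Dox and -0.79 within Dox + sACVR2B. Of these 12 genes 0 were non-overlapping, near the shares of all genes (2.39% higher and 1.89% lower) for a list of this size. Alas2, the erythroid enzyme of haem synthesis, was 1277 in Dox + sACVR2B 5 and 48.7 to 221 on the other arrays.

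Lists of contraction and energy supply had no non-overlapping genes, which is near the share of all genes (2.39% higher and 1.89% lower) for lists of this size. Non-overlapping were 0 of 30 genes of slow and fast fibres (median -0.06), 0 of 22 of glycolysis (0.03), 0 of 42 of oxidative phosphorylation (0.04), 0 of 34 of the proteasome (0.10) and 0 of 33 of autophagy and lysosome (0.09). The 42 oxidative phosphorylation genes spanned only -0.10 to 0.20. Among myostatin, activin and BMP genes, the pathway that sACVR2B-Fc blocks, 1 of 30 was non-overlapping, Fstl1, and the median was 0.01. In the ATF4 list 1 of 22, Xbp1 (-0.32), a factor of the unfolded protein response, was lower. Stard4, a cholesterol carrier, was the 1 of 19 fat and sterol genes that was lower (-0.63).

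**Figure D5:**
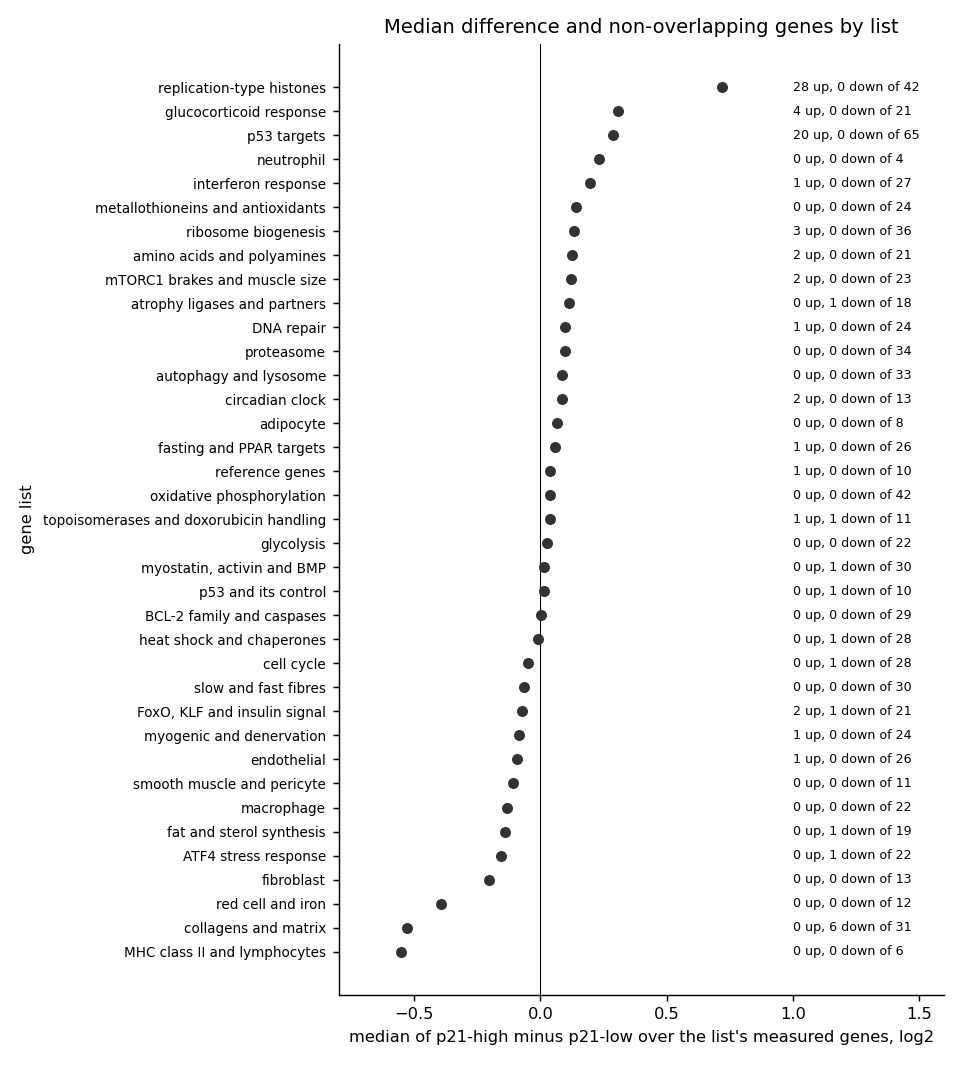
Median p21-high minus p21-low difference (log2) of the measured genes of each of 37 lists, with the number of genes that were higher or lower without overlap at the right. The replication-type histones, added after their values were seen, lie at 0.72, p53 targets at 0.29, collagens and matrix at -0.53, and the fibre and energy lists near 0.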

How the data were processed

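Total RNA of TA muscle from 15 mice was labelled with biotin and read on Illumina bead chips with 45281 probes. The deposited table holds linear intensities that the authors quantile-normalised in Chipster, and 34.0% of them were below 0, as after background subtraction. Signals ran from -25 to 29731, with a median of 7.6 on every array, and 19843 to 19890 probes per array lay above noise. A second deposited table of values that were not normalised was not used, because its 30 columns carry names that match no label. The array, slide and scan of each sample are not given in the sources used here. The number of arrays limits the precision, and array pairs correlated at 0.967 to 0.995 with no 2 identical.

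Probes were named from the platform annotation. It paired 34885 with a single gene, 18 with more than 1 and 10378 with no gene, and 34807 could be matched to RefSeq. Noise, from the values below 0, had an SD of 7.52. Probes above 12.4 (1.645 SD) on at least 5 arrays were kept, which left 21307 probes and 11458 genes. An offset of 50 was added before log2, and the probe of the highest mean signal stood for a gene. Because the offset shrinks differences of dim genes, folds of such genes are understated. A gene below noise on all p21-low arrays was given a lower bound, with its p21-low signals raised to 12.4.

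Arrays were put into sets by Cdkn1a, and sets were compared by difference of means and by overlap. Labels were compared by limma (version 3.58.1 in R 4.3.3), fitted over all 15 arrays, two-sided, with Benjamini-Hochberg adjustment over 11458 genes and a threshold of 0.05. The labels name separate mice. Both procedures were tested on simulated data. Plots were drawn with matplotlib 3.10.9 from Python 3.11.15.

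The members and the gene lists were chosen with earlier results of these data known. Named genes were Cdkn1a and its markers, non-overlapping members of the p53 target list, the 15 largest rises and falls outside it among non-overlapping genes, and up to 4 non-overlapping members of each other list, or the 1 of the largest difference. Other p53 targets, Rps27l, Susd6, Vegfa, Fbxo32, Trim63, Col5a1, Loxl1 and further histones were named after their values were seen. Alternatives were other offsets, no noise filter or a stricter one, the mean over probes, cyclic loess, overlap within labels, other limma fits and leaving out each array.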

Additional observations from a re-analysis of the deposited data

Results flagged for a closer look

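Within each label of 5 mice, a value was singled out where the gap between the highest or lowest array and its neighbour, divided by the whole range, passed Dixon's limit of 0.71. Of 282 groups of named genes and labels looked at, 16 passed, and chance gives about 1 in 20. In 8 of the 16 the array was Dox 2, the only p21-low array labelled Dox. It was low for Cdkn1a (ratio 0.832), Cpne2 (0.819), Lig3 (0.835), Pik3r1 (0.763), Heatr1 (0.786), Npm1 (0.711) and Slc38a2 (0.782), and high for Amigo3 (0.744). These genes were named for the split, so that a lone p21-low array in its label stands apart by the choice of genes.

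The other 8 were spread over the arrays. Mpeg1, a pore-forming protein of macrophages, was high in Ctrl 2 (0.826) and in Dox 1 (0.734). Hmox1, haem oxygenase 1, was low in Ctrl 3 (0.715), and Hspb1 was low in Dox 3 (0.793). Among arrays labelled Dox + sACVR2B, Depp1, a FoxO target, was high in number 3 (0.767), Idh2, a mitochondrial dehydrogenase, was high in number 2 (0.805), Alas2 was high in number 5 (0.846) and Hprt was low in number 5 (0.73).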

How the results depend on the processing

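Offsets of 16 and 100 left the genes higher (274) and lower (217) without overlap as they were, and without a noise filter there were 280 and 217. With genes above noise on all arrays there were 247 and 206, with the mean over probes 295 and 199 (227 and 172 shared), and after cyclic loess 282 and 215 (259 and 200 shared). Leaving out 1 array gave 275 to 391 higher and 221 to 373 lower genes and 20 to 24 of the p53 target list, since fewer arrays make overlap rarer. The count of 373 was without Dox + sACVR2B replicate 5. Overlap judged within each label alone gave 572 higher and 509 lower genes. The limma counts were 0 in every alternative run for both comparisons, leave-one-out included (0 to 0).

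Replicate numbers did not pair the samples: over 15 same-numbered pairs the correlation of deviations ran from -0.41 to 0.36, with 4 over 0.1. With the replicate block the limma counts were 0 and 0. Of 1967 recomputed differences of 94 named genes, 0 changed sign and 30 moved by more than the spread between arrays, the largest with another offset for dim genes (Gtse1, 5.39 with an offset of 16) or with the mean over probes (Nmrk2, -2.48). Without Ctrl 2 the difference of Mpeg1 was -0.32, and without Dox + sACVR2B replicate 5 that of Alas2 was -0.25. Of 58 dimmer probes of the named genes 53 had the sign of the brightest, and 21 were non-overlapping.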
